A study of Homo sapiens with 14 samples.

Results

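The genes described here are 10 kinases and phosphatases that act at entry into mitosis: CDK1, PLK1, PLK4, WEE1, PKMYT1, CDC25A, CDC25B, CDC25C, NEK2 and MASTL. They were chosen by name and matched to the gene symbols of the count tables, where all 10 were found among the 26732 genes listed in both tables. The choice was made with earlier results of these data known, so their counts beside the shares of all genes are descriptive. A549 and H1792 cells, 2 established lines from human lung adenocarcinoma, were exposed for 48 h to 0.1 µM AMG900, an inhibitor of all aurora kinases, or to the solvent DMSO, and their RNA was sequenced. There were 4 DMSO and 4 AMG900 libraries of A549, grown in DMEM, and 3 DMSO and 3 AMG900 libraries of H1792, grown in RPMI medium, and the labels name no genetic change in any of them. Each line stands for a single tumour.

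Entry into mitosis is switched by CDK1, the kinase that, bound to cyclin B, phosphorylates most mitotic substrates. WEE1 and PKMYT1 hold CDK1 inactive by phosphorylating it, and the CDC25 phosphatases remove those phosphates. PLK1 activates CDC25C and marks WEE1 for destruction, MASTL (Greatwall) blocks the phosphatase that would undo CDK1's work, and NEK2 and PLK4 separate and duplicate the centrosomes. Many genes of this kind are transcribed mainly in late cell cycle stages, from promoters that often hold CCAAT boxes, E2F sites or an element known as CHR, commonly spelled TTTGAA.

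To show the DNA behind these transcripts, 200 bases before the transcription start are printed for 6 of the 10 genes, from the RefSeq promoter table (GRCh38.p14). CDK1, PLK1, CDC25C and CDC25B were picked because their windows hold both a CHR and a CCAAT match, CDC25A because it holds E2F and CCAAT matches with no CHR, and NEK2 because it holds CCAAT matches alone. The stretches lie at chr10:60778278-60778477 (plus strand), chr16:23678689-23678888 (plus strand), chr5:138331805-138332004 (minus strand), chr20:3796110-3796309 (plus strand), chr3:48188418-48188617 (minus strand) and chr1:211675622-211675821 (minus strand). Each is read 5′ to 3′ on the strand of the gene, its last base adjoins the transcription start, and capitals mark the matches to any of the motifs on either strand.
CDK1: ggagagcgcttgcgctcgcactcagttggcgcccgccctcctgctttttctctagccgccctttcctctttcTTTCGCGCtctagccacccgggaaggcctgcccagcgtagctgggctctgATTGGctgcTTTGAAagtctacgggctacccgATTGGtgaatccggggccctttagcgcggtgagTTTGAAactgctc
PLK1: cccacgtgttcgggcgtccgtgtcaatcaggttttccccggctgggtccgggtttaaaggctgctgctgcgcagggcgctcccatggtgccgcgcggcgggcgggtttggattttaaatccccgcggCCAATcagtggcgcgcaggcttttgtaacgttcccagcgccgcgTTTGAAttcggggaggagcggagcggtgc
CDC25C: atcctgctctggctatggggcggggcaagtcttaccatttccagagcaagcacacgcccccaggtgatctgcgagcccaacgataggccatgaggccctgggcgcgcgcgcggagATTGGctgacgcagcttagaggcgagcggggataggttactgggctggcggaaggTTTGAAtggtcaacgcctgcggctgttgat
CDC25B: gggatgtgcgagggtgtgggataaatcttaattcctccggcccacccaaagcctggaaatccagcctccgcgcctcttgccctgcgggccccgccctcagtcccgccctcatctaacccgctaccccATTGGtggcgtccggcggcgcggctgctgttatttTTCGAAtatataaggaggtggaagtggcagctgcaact
CDC25A: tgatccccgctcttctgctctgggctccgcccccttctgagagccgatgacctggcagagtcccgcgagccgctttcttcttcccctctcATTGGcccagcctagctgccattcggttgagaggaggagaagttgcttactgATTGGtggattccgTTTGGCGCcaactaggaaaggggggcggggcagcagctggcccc
NEK2: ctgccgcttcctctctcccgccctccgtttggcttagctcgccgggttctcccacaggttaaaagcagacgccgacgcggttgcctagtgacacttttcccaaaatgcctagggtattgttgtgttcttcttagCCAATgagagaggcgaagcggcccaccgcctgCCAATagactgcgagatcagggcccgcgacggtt

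The promoter table held 17 windows for 8 of the genes, since CDK1 has 2 listed starts, PLK4 has 3, and CDC25B and CDC25C have 4 each. For each gene the window was used whose start coincides with that of the canonical GENCODE transcript. WEE1 and PKMYT1 had no entry. The search used the whole window from 250 bases before to 50 bases after the start, on both strands, for the CCAAT box by its letters, for E2F sites spelled TTTCCCGC, TTTCGCGC, TTTGGCGC or TTTGCCGC, and for CHR as spelled above and in the second spelling TTCGAA, and no 2 of these words overlapped in the windows used. A CHR match was present in 6 of the 8 windows and in 16.4% of the 35116 promoters of the table, a CCAAT match in 6 of 8 and in 34.6%, and an E2F match in 2 of 8 and in 3.31%. The 35116 windows cover 27305 genes at all their listed starts, and on that footing 8 of the 17 windows of the 8 genes held a CHR match, 10 a CCAAT match and 3 an E2F match. CDK1, PLK1, CDC25B and CDC25C held both CHR and CCAAT, as did 6 of the 17 windows and 6.38% of all promoters. CDK1 alone of the 8 held matches to all 3 kinds of motif, in 2 windows that share bases, and 0.179% of all promoters did. In PLK1 the CCAAT match lay at bases -73 to -69 and the CHR match at -29 to -24, counted from -1 at the last base before the start. CDC25B had its CCAAT match at the same place but on the opposite strand, and its CHR match, at -38 to -33, was in the second spelling. The CHR matches of CDK1, PLK1 and CDC25C were in the first. A match is a stretch of letters and does not show that a factor binds there.

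**Figure D1:**
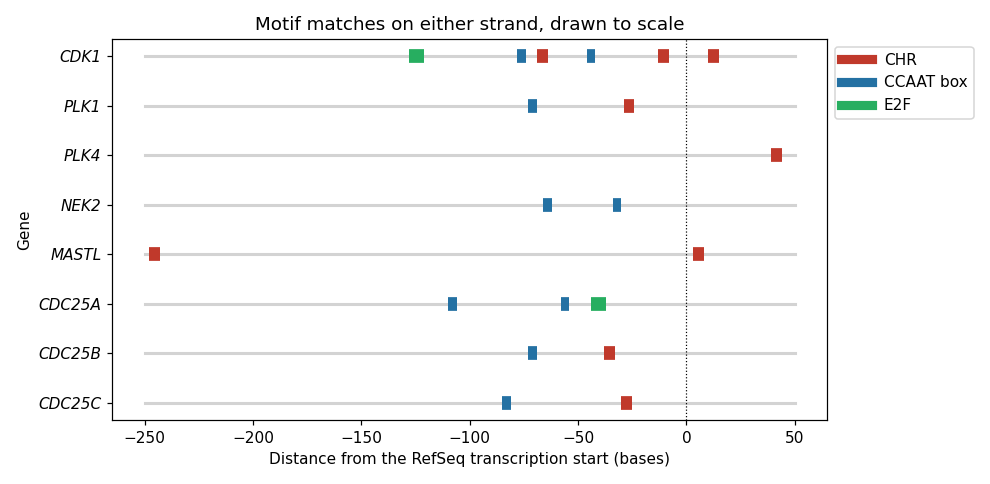
Motif matches in the promoter windows of 8 genes, drawn to scale against the distance in bases from the RefSeq transcription start (dotted line at 0), with grey lines for the windows from 250 bases before to 50 bases after it. Red blocks are CHR matches, blue blocks CCAAT boxes and green blocks E2F matches on either strand, and CDK1 has the largest number, with 3, 2 and 1 of them.

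Levels are given as CPM, counts scaled to a common library total by the TMM method over all 14 libraries, and changes are the log2 fold change (log2FC) of AMG900 against DMSO from the edgeR quasi-likelihood test within each line. A gene was called where the Benjamini-Hochberg adjusted p over all genes tested was under 0.01. Total counts were 4254644 to 18962883 in the A549 libraries and 42760874 to 79902934 in the deeper H1792 libraries, and the smallest was A549 DMSO replicate 1. Biological variation between replicates (edgeR's common coefficient) came to 12.8% for A549 and 9.60% for H1792. Nothing in the labels says that the replicates came from separate experiments, so p-values measure only the spread between these libraries. The epithelial keratin genes KRT7, KRT8 and KRT18 were abundant in both lines, at 251.9 CPM or more in every library. KRT19 was lower, at 19.7 to 88.5 CPM in A549 and 5.92 to 10.5 CPM in H1792. EPCAM was at most 0.542 CPM in A549 and CDH1 at most 1.07 CPM in H1792. The alveolar markers NKX2-1, NAPSA, SFTPB and SFTPC summed to at most 2.06 CPM in any library. The sum of 5 mesenchymal markers went from 1748 to 2137 CPM with DMSO to 2145 to 2259 with AMG900 in A549. In H1792 it went from 10040 to 10640 to 9179 to 9216, and the ranges overlapped in neither line. The members did not move together. In A549, FN1 rose from 318.1 to 445.5 CPM to 750.2 to 818.3 and COL1A1 fell from 82.0 to 113 to 38.5 to 48.7. VIM overlapped there (1316 to 1621 and 1345 to 1402 CPM), and COL1A2 and DCN were at most 0.922 CPM. In H1792, VIM rose from 2330 to 2666 CPM to 3069 to 3135, FN1 overlapped, and COL1A1, COL1A2 and DCN fell without overlap. The sum of 3 endothelial markers was 0.216 to 16.5 CPM over all libraries. Of the leukocyte markers, PTPRC, CD3E and MS4A1 stayed under 0.173 CPM in every library. CD68, a lysosomal gene that tumour lines can express, carried the sum of the 4, which went from 54.97 to 80.9 CPM with DMSO to 151.8 to 169.7 with AMG900 in A549 and from 99.8 to 115.4 to 170.7 to 196.6 in H1792. The sum of the 6 epithelial markers was also higher with AMG900, going from 7536 to 9795 CPM to 10710 to 12620 in A549 and from 1574 to 1975 to 1982 to 2026 in H1792. The part of these shifts in the results was not tested.

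AMG900 lowered all 10 kinases and phosphatases in A549 cells, where 17.8% of the 13174 genes tested were called lower and 17.2% higher. CDK1 and PLK4 passed the filter on low counts only through their controls, with 1 and 0 of 4 AMG900 libraries above its minimum. The filter thus favours a fall for CDK1 and PLK4. With at least 10 counts in every library, 8 of the genes were tested and all 8 were called lower. In 9 of the 10 the fall was 5.13-fold (CDC25A) to 13.8-fold (PKMYT1). CDC25B, by far the most abundant of them per length of transcript, fell by only 1.33-fold. The median log2FC over the 10 was -3.17, beside -0.01 over all genes tested. In each of the 10 the AMG900 and DMSO libraries did not overlap. The share of all genes separated in this way was not counted, so this cannot be read as particular to the 10. In bulk samples such as these, fewer cells expressing a gene and less RNA per cell cannot be told apart.

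In H1792 cells the same dose and time gave smaller changes. WEE1, PLK4, CDC25A, CDK1 and CDC25B were called lower, none was called higher, and PLK1, NEK2, MASTL, PKMYT1 and CDC25C did not pass the test. Of the 15017 genes tested there, 18.8% were called lower and 16.2% higher. WEE1, the inhibitory kinase of CDK1, had the largest fall at 2.27-fold, and it was the only one of the 10 past 2-fold. The median log2FC over the 10 was -0.26, beside 0.01 over all genes. With a correction for GC content, given below, CDK1 and PLK4 were not called. PLK1 and PKMYT1 then became called lower and CDC25C higher.

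**Figure D2:**
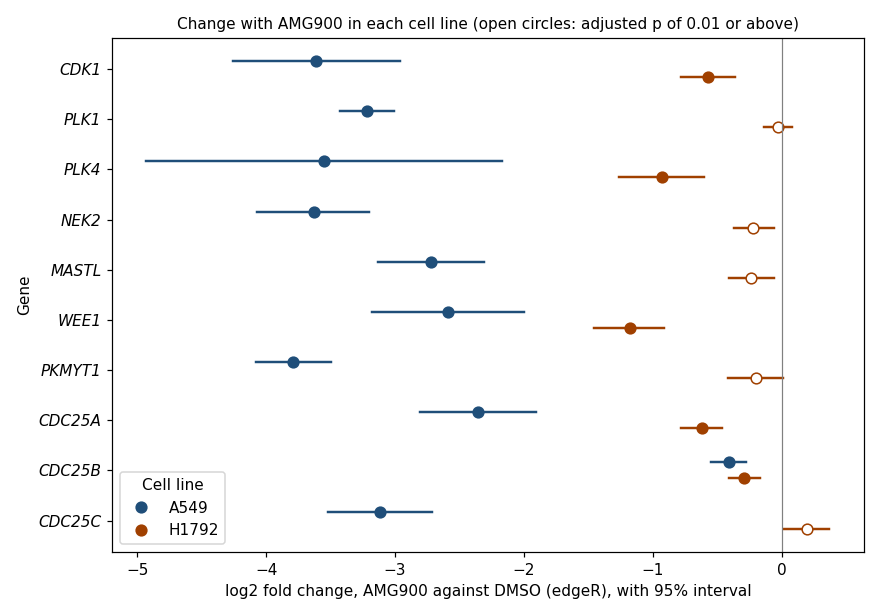
Log2 fold change with AMG900 against DMSO for each of the 10 genes in A549 (blue) and H1792 (brown), with bars for the 95% interval from the edgeR fit. Filled circles are called and open circles are not. The A549 values of 9 genes lie between -3.79 and -2.36 with the H1792 values between -1.18 and 0.20, and only for CDC25B do the intervals of the lines overlap.

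CDK1 (chr10:62538089-62554610, GRCh37) was at 9.75, 11.6, 11.1 and 11.6 CPM in the A549 DMSO libraries and at 0.565, 0.639, 1.79 and 0.597 CPM in the A549 AMG900 libraries. Every treated library lay far below every control, and replicate 3 stood above the other treated ones. These treated levels rest on 6, 9, 33 and 9 reads, and CDK1 passed the filter on low counts through its control group, with 1 of 4 AMG900 libraries above the minimum of 0.729 CPM. The log2FC was -3.61 (SE 0.30, adjusted p = 2.7e-07, edgeR), a 12.2-fold fall, and -4.26 without AMG900 replicate 3. In H1792, CDK1 was at 15.4, 18.4 and 17.5 CPM with DMSO and at 10.7, 12.4 and 11.6 CPM with AMG900. The groups did not overlap, and the treated H1792 libraries overlapped the untreated A549 libraries. The log2FC was -0.57 (SE 0.10, adjusted p = 0.00071, edgeR). With a correction for GC content the H1792 value was 0.10 and not called (adjusted p = 0.286, edgeR).

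Of the activating phosphatases, CDC25A (chr3:48198636-48229907), which also acts at S phase entry, was at 15.1, 14.97, 17.1 and 15.5 CPM in A549 with DMSO and at 2.54, 4.90, 3.14 and 2.26 CPM with AMG900. The log2FC was -2.36 (SE 0.21, adjusted p = 5.3e-07, edgeR), the smallest fall of the 10 apart from that of CDC25B. In H1792 it was at 34.1, 38.0 and 34.2 CPM with DMSO and at 22.2, 24.2 and 22.9 CPM with AMG900. No treated library reached a control in either line, and the H1792 log2FC was -0.62 (SE 0.07, adjusted p = 8.0e-05, edgeR).

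CDC25C (chr5:137620958-137674044), the form of CDC25 that PLK1 and CDK1 switch on at the onset of mitosis, went apart in the lines. It was at 11.97, 19.4, 15.9 and 18.6 CPM in A549 with DMSO and at 2.17, 1.84, 2.22 and 1.86 CPM with AMG900. That is an 8.67-fold fall with no overlap (log2FC -3.12, SE 0.19, adjusted p = 8.9e-09, edgeR). In H1792 the controls were at 21.3, 24.8 and 23.1 CPM and the treated libraries at 25.04, 27.4 and 26.98 CPM. All 3 treated libraries were above all 3 controls, but the log2FC of 0.20 (SE 0.08, 95% interval 0.02 to 0.37) did not pass the threshold (adjusted p = 0.0608, edgeR).

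CDC25B (chr20:3767419-3786768), which starts CDK1 activation at the centrosome, was at 674.2, 609.3, 612.3 and 611.7 CPM in A549 with DMSO and at 478.3, 510.3, 471.8 and 528.4 CPM with AMG900. In H1792 it was at 429.2, 379.7 and 396.4 CPM with DMSO and at 332.4, 325.5 and 330.0 CPM with AMG900. Treated and control libraries did not overlap in either line, and both falls were modest. The log2FC was -0.41 (SE 0.06, adjusted p = 0.00011, edgeR) in A549 and -0.29 (SE 0.06, adjusted p = 0.0015) in H1792. Without H1792 AMG900 replicate 2 the H1792 value was -0.28 and just missed the threshold (adjusted p = 0.0128, edgeR). Over all the H1792 fits that left out a library it was -0.34 to -0.26, and with a correction for GC content it was -0.57 (adjusted p = 1.23e-06).

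The inhibitory kinases fell in A549 as well. WEE1 (chr11:9595217-9615004), which acts on CDK1 in the nucleus, was at 14.4, 7.57, 9.01 and 6.74 CPM with DMSO and at 1.69, 1.49, 1.25 and 1.99 CPM with AMG900. The controls varied widely, with replicate 1 about as high as the H1792 controls, but none came near the treated libraries (log2FC -2.59, SE 0.28, adjusted p = 3.2e-06, edgeR). In H1792, WEE1 was at 14.2, 15.4 and 15.2 CPM with DMSO and at 7.71, 5.39 and 6.58 CPM with AMG900. These groups stood well apart, with a log2FC of -1.18 (SE 0.12, adjusted p = 4.0e-05, edgeR).

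PKMYT1 (chr16:3018025-3030480), its counterpart at the Golgi and endoplasmic reticulum, was at 70.0, 50.3, 59.6 and 54.5 CPM in A549 with DMSO and at 4.05, 4.12, 4.61 and 4.91 CPM with AMG900. This was the largest fall of the 10 (log2FC -3.79, SE 0.14, adjusted p = 3.1e-11, edgeR). In H1792 the controls were at 82.0, 59.9 and 70.4 CPM and the treated libraries at 62.9, 62.8 and 59.0 CPM. These overlapped, and the log2FC of -0.20 (95% interval -0.42 to 0.01, adjusted p = 0.103, edgeR) did not pass. Exons of PAQR4 and KREMEN2 overlap those of PKMYT1 on the opposite strand, and whether the counting used strand is not given in the sources used here.

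PLK1 (chr16:23688977-23701688), the kinase that turns on CDC25C and drives centrosome maturation, was at 129.0, 165.3, 164.9 and 167.4 CPM in A549 with DMSO and at 18.2, 16.5, 17.8 and 18.7 CPM with AMG900. The treated libraries lay within a narrow range, 9.32-fold below the controls (log2FC -3.22, SE 0.10, adjusted p = 6.5e-12, edgeR). In H1792, PLK1 was at 232.1, 223.0 and 230.9 CPM with DMSO and at 229.6, 225.6 and 216.8 CPM with AMG900. The groups overlapped and the log2FC was -0.03 (95% interval -0.14 to 0.08, adjusted p = 0.61, edgeR).

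MASTL (chr10:27443753-27476882), the Greatwall kinase, was at 16.8, 15.1, 16.9 and 15.7 CPM in A549 with DMSO and at 2.35, 2.70, 1.79 and 3.52 CPM with AMG900. The groups were far apart (log2FC -2.72, SE 0.19, adjusted p = 4.3e-08, edgeR). In H1792 it was at 16.9, 16.5 and 17.2 CPM with DMSO and at 13.6, 15.2 and 14.4 CPM with AMG900. The treated libraries were all below the controls, but the log2FC of -0.24 (95% interval -0.41 to -0.06) did not pass the threshold (adjusted p = 0.028, edgeR). Exons on the opposite strand also overlap MASTL (ACBD5 and YME1L1), PLK1 (ERN2) and CDC25C (FAM53C), and the part of reads from these neighbours was not tested.

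The centrosome kinase NEK2 (chr1:211831999-211848972), which dissolves the linker between centrosomes, was at 29.3, 28.7, 23.6 and 25.5 CPM in A549 with DMSO and at 2.26, 3.41, 1.52 and 1.99 CPM with AMG900. That is a 12.4-fold fall (log2FC -3.63, SE 0.20, adjusted p = 3.4e-09, edgeR). In H1792 the controls were at 26.0, 28.2 and 25.9 CPM and the treated libraries at 22.8, 23.1 and 23.3 CPM. These did not overlap, yet the log2FC of -0.22 (95% interval -0.37 to -0.06) did not pass (adjusted p = 0.0238, edgeR).

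PLK4 (chr4:128802048-128820379), the kinase that starts centriole duplication, had the fewest reads. In A549 it had 8, 27, 23 and 18 reads with DMSO, or 1.77, 2.32, 1.66 and 1.04 CPM, and 5, 2, 1 and 0 reads with AMG900, or 0.471, 0.142, 0.0542 and 0 CPM. Control and treated libraries did not overlap, but none of the 4 AMG900 libraries was above the filter's minimum, so PLK4 was tested through its control group alone. A count of 0 in replicate 4 allows up to 0.199 CPM (3 reads, counting error only). The log2FC of -3.55 had an SE of 0.64 and a 95% interval of -4.93 to -2.17 (adjusted p = 0.00041, edgeR), and it was -4.61 without AMG900 replicate 1. In H1792, PLK4 was at 3.34, 3.59 and 3.76 CPM with DMSO and at 2.03, 1.78 and 1.78 CPM with AMG900, with no overlap and a log2FC of -0.93 (SE 0.15, adjusted p = 0.00056, edgeR). With a correction for GC content the H1792 value was -0.46 and not called (adjusted p = 0.0223, edgeR).

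**Figure D3:**
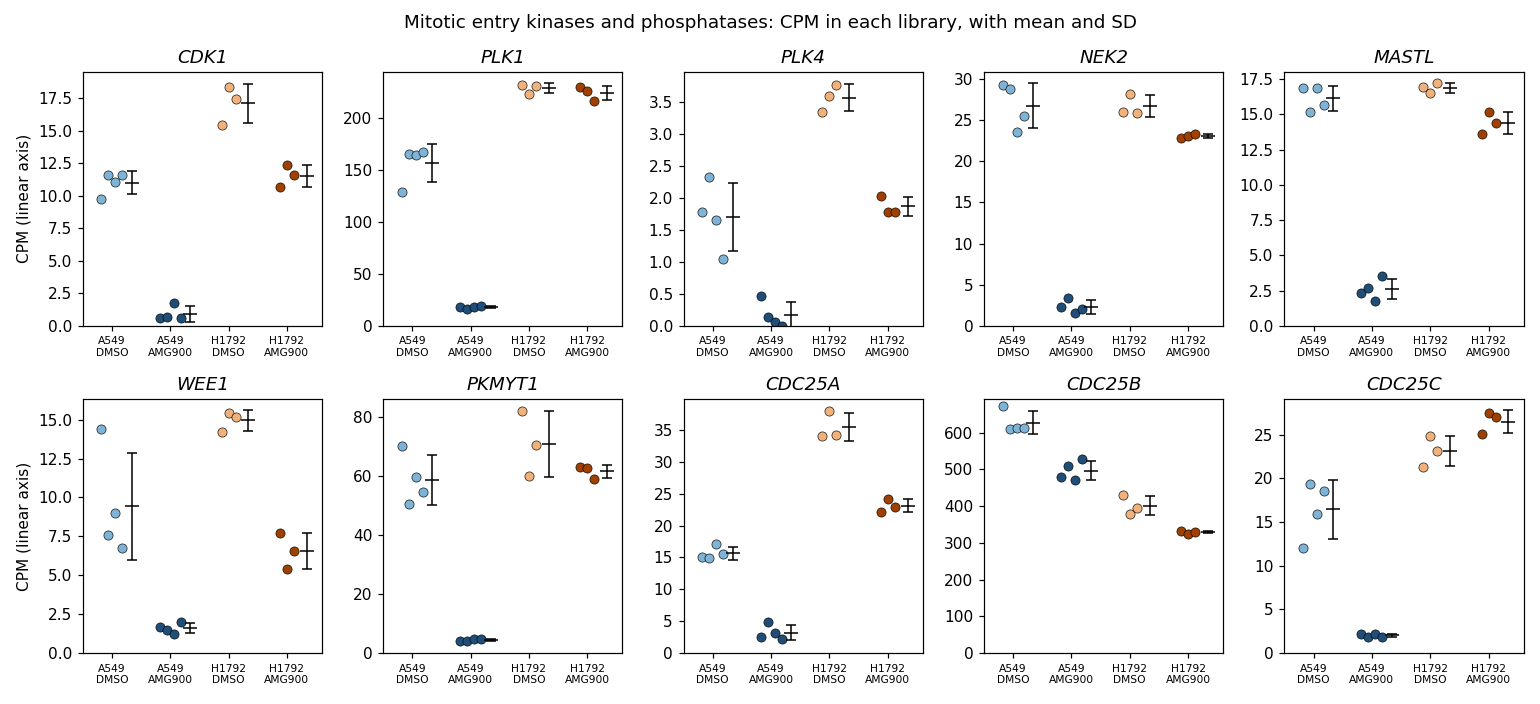
CPM of each of the 10 genes in every library (points) with the mean and SD of each group (black bars beside the points), on linear axes from 0. Groups from left to right are A549 with DMSO, A549 with AMG900, H1792 with DMSO and H1792 with AMG900, and in 9 genes the A549 AMG900 points lie near the bottom of the panel while CDC25B stays between 471.8 and 528.4 CPM there.

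How far the response differs between the lines was examined by an interaction term, fitted over all 14 libraries together, as the H1792 log2FC minus the A549 log2FC. In this term line, medium and depth of sequencing cannot be told apart. The difference was called for 9 of the 10 genes, in each case with the higher log2FC in H1792, where 5.37% of the 14769 genes tested were called in that direction and 9.17% in the other. It was largest for PKMYT1 at 3.50 (SE 0.17, adjusted p = 1.6e-11), NEK2 at 3.35 (SE 0.22), CDC25C at 3.25 (SE 0.20) and PLK1 at 3.11 (SE 0.12). CDK1 and MASTL followed at 2.96 (SE 0.30) and 2.41 (SE 0.21), and CDC25A stood at 1.67 (SE 0.22, adjusted p = 1.3e-05). For CDC25B the difference was 0.05 (95% interval -0.14 to 0.23, adjusted p = 0.754), the only one of the 10 that was not called. The calls of PLK4 (2.60, SE 0.63, adjusted p = 0.00491) and WEE1 (1.30, SE 0.31, adjusted p = 0.00427) were close to the threshold. PLK4's was lost in 8 of the 14 fits that each left out a library, namely A549 DMSO replicate 2, A549 AMG900 replicates 2, 3 and 4, H1792 DMSO replicates 1 and 3, and H1792 AMG900 replicates 1 and 2, with adjusted p of 0.0101 to 0.0191. WEE1's was lost in 5, without A549 AMG900 replicate 2 or 3, H1792 DMSO replicate 1 or 3, or H1792 AMG900 replicate 1 (adjusted p of 0.0102 to 0.0165). Without A549 AMG900 replicate 1 the difference for PLK4 was 3.70, and without replicate 3 that for CDK1 was 3.63. Over all genes the split of interaction calls moved with the scaling, from 793 higher and 1355 lower to 1012 and 1033 with the size factors of DESeq2 and to 988 and 1047 with total counts, while 9 of these 10 genes were called under each of these scalings.

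Before treatment the lines differed less. With DMSO, CDC25A was 2.26-fold and PLK4 2.15-fold higher in H1792 than in A549, and WEE1 (1.68-fold), CDK1 (1.54-fold), PLK1 (1.45-fold) and CDC25C (1.37-fold) were also called higher. CDC25B was called lower, at 1.56-fold less (log2 difference -0.64, SE 0.06, adjusted p = 2.6e-08, edgeR). In this comparison 34.2% of genes were called higher in H1792 and 31.9% lower, so 7 calls among 10 are near the share of all genes. NEK2 (log2 difference 0.01, 95% interval -0.27 to 0.29), MASTL (0.07, -0.21 to 0.35) and PKMYT1 (0.29, 0.06 to 0.51) were not called. The number called was 4 without A549 DMSO replicate 3, when CDK1 (0.62, adjusted p = 0.0103), PLK4 (1.11, adjusted p = 0.0123) and CDC25C (0.42, adjusted p = 0.0112) missed the threshold of the edgeR test. PLK4 and WEE1 also missed it without A549 DMSO replicate 4 (0.88 and 0.61), CDK1, PLK4 and CDC25C without H1792 DMSO replicate 2 (0.57, 1.11 and 0.41), and CDK1 and PLK4 without H1792 DMSO replicate 3 (0.61 and 1.07). PKMYT1 became called without A549 DMSO replicate 1 (0.37) or H1792 DMSO replicate 2 (0.40). WEE1 was called although its DMSO libraries overlapped between the lines. CDK1 was not called once GC content was corrected for (0.34, adjusted p = 0.0591, edgeR), nor with GC content and length (0.12, adjusted p = 0.505), and the other 6 calls were kept under both corrections.

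With AMG900 all 10 differed between the lines. CDC25B was again lower in H1792 (log2 difference -0.59, SE 0.06), and the other 9 were higher, by 4.13-fold (WEE1) to 13.8-fold (PKMYT1), where 33.1% of genes were called higher and 35.3% lower. Without A549 AMG900 replicate 1 the log2 difference for PLK4 went from 3.70 to 4.80, and without replicate 3 that for CDK1 went from 3.58 to 4.25. The median log2 difference over the 10 was 3.47, beside -0.05 over all genes. For PLK1, levels were 16.5 to 18.7 CPM in treated A549 and 216.8 to 229.6 CPM in treated H1792 libraries (log2 difference 3.65, SE 0.09, adjusted p = 6.5e-18, edgeR). Line, medium and depth of sequencing cannot be told apart in either comparison between the lines.

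Per kilobase of the canonical transcript, the order of the genes was much the same in all 4 groups. CDC25B was first, at 201.0 ± 10.1 CPM per kb (SD, n = 4) in A549 with DMSO and 128.8 ± 8.07 (SD, n = 3) in H1792 with DMSO, followed by PLK1 at 72.5 ± 8.55 and 105.9 ± 2.27 and PKMYT1 at 28.4 ± 4.13 and 34.3 ± 5.38. PLK4 was last in every group, at 0.442 ± 0.138 CPM per kb in A549 with DMSO and 0.0434 ± 0.0550 with AMG900. In the middle of the order some neighbours were not separated, and which ones differed between the groups. In A549 with AMG900, each of the neighbours from NEK2 (1.08 ± 0.376) down to WEE1 (0.448 ± 0.0880) overlapped the next. The distance between CDC25B and PLK1 was wide in treated A549 (159.4 ± 8.58 against 8.25 ± 0.430) while in treated H1792 the ranges of both overlapped (105.6 ± 1.12 against 103.7 ± 3.01).

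Since WEE1 and PKMYT1 oppose the CDC25 phosphatases, their read counts were set against each other within each library, where scaling plays no part. The ratio of PKMYT1 to CDC25B reads was 0.0826 to 0.104 in A549 with DMSO and 0.00806 to 0.00977 with AMG900. In H1792 it was 0.158 to 0.191 and 0.179 to 0.193, and these overlapped. The ratio of PKMYT1 to CDC25A reads separated the groups in both lines but in opposite directions, from 3.36 to 4.65 to 0.841 to 2.18 in A549 and from 1.57 to 2.41 to 2.58 to 2.84 in H1792. WEE1 to CDC25B was lower with AMG900 in both lines, from 0.0110 to 0.0214 to 0.00264 to 0.00377 in A549 and from 0.0331 to 0.0407 to 0.0166 to 0.0232 in H1792. WEE1 to CDC25A and WEE1 to CDC25C were lower in treated H1792 libraries and overlapped in A549. For CDC25A the ranges were 0.406 to 0.444 and 0.222 to 0.348 in H1792, and 0.435 to 0.956 and 0.304 to 0.882 in A549. For CDC25C the ratio was 0.623 to 0.666 in H1792 with DMSO and 0.196 to 0.308 with AMG900, while the A549 ranges of 0.363 to 1.20 and 0.561 to 1.07 overlapped. For PKMYT1 to CDC25C the ranges overlapped in H1792 (2.41 to 3.85 and 2.19 to 2.51) and also in A549 (2.60 to 5.85 and 1.87 to 2.64). No test was run on these 6 ratios. They were not corrected for GC content, in which the 5 transcripts differ, from 46.3% (CDC25C) to 67.3% (PKMYT1). In treated A549 libraries they rest on few reads for WEE1 (18 to 30), CDC25C (23 to 41) and CDC25A (27 to 69).

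The change with AMG900 also followed base composition. Across genes, which are not independent replicates, transcripts richer in GC had a higher log2FC, with a Spearman's rho of 0.499 for A549 and 0.481 for H1792, and the 10 transcripts range from 35.4% GC (CDK1) to 67.3% (PKMYT1). With a spline correction for GC content the A549 falls were -4.25 (PKMYT1) to -0.75 (CDC25B) and all 10 stayed called. In H1792 the correction changed several calls. CDK1 went to 0.10 (adjusted p = 0.286) and PLK4 (38.1% GC) to -0.46 (adjusted p = 0.0223), so neither was called, and NEK2 (41.8% GC) and MASTL (41.2% GC) turned to 0.05. PLK1 (57.1% GC) at -0.28 (adjusted p = 0.000278) and PKMYT1 at -0.55 (adjusted p = 1.04e-05) became called lower, and CDC25C at 0.27 (adjusted p = 0.00645) became called higher. The falls of WEE1, CDC25A and CDC25B in H1792 were called with and without it. The source of the GC trend was not tested.

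**Figure D4:**
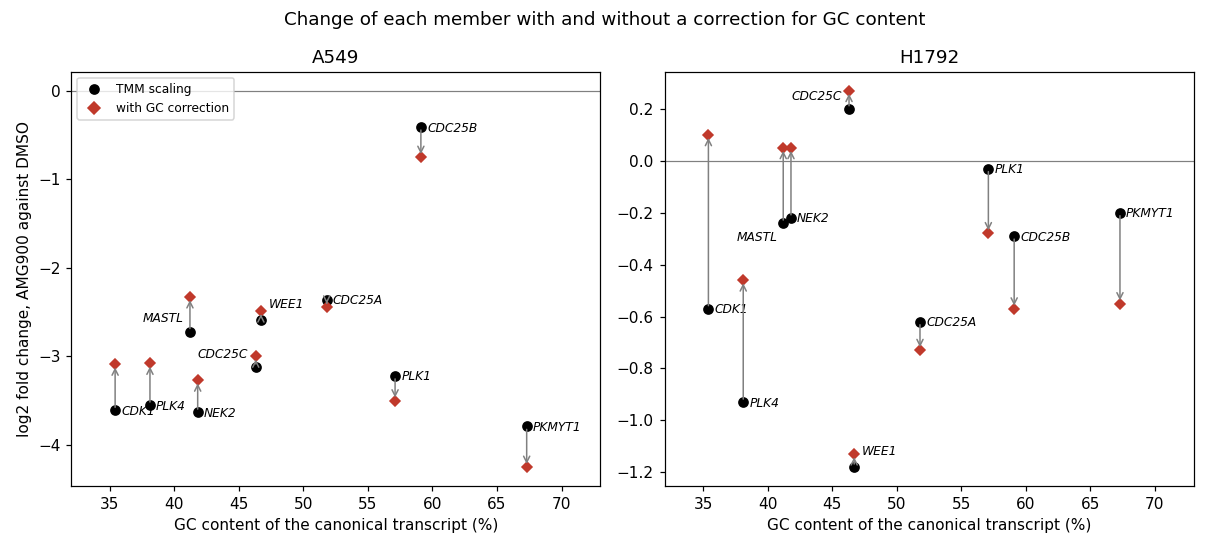
Log2 fold change of the 10 genes against the GC content (%) of the canonical transcript, in A549 (left) and H1792 (right, on a narrower axis), before (black circles) and after (red diamonds) the spline correction for GC content, joined by arrows. In H1792 the low-GC genes CDK1, PLK4, MASTL and NEK2 move up, 3 of them past 0, and PLK1, CDC25B and PKMYT1 move down.

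The partners of these enzymes were counted in 76 other genes of the mitotic entry pathway. This list was also chosen with earlier results of these data known, so its counts are descriptive. In A549, 73 were tested, of which 38 were lower and 3 higher, beside 17.8% and 17.2% of all genes tested, with a median log2FC of -0.49. In H1792, 30 of 76 were lower and 5 higher, beside 18.8% and 16.2% of all genes, with a median of -0.22. The values of the 76, here and in the paragraphs on their roles, were not corrected for GC content in either line. Among the kinases and phosphatases that correction changed several H1792 calls. Its effect on the counts and changes of the 76 was not tested. The interaction was called for 26 of the 76, with the higher log2FC in H1792 in 20, where 5.37% of all genes were called, and the lower in 6, which is near the 9.17% of all genes. A549 DMSO replicate 1, the smallest library, was far above the other controls for some of these genes, so the A549 values were also computed without it, a setting chosen after seeing the data. There 45 of 74 tested were lower, 37 of them among the 38, and 5 were higher, including the 3. Of the genes named in the following, NEK7 lost its call and CROCC gained one. Each count by role that follows stands beside the shares of all genes, 17.8% lower and 17.2% higher in A549 and 18.8% and 16.2% in H1792. The cyclins and CDK1 partners were lower in 6 of 9 in A549 (median -2.07) and in 4 of 9 in H1792, where 1 was higher. CCNA2 (cyclin A2) went from 17.5 to 0.713 CPM in A549 (log2FC -4.63, SE 0.29) and from 40.6 to 16.3 CPM in H1792 (-1.32, SE 0.08). Its A549 fall rests on 8 to 16 reads per treated library and was -4.37 without A549 DMSO replicate 1. With treated A549 libraries at 0.568 to 0.867 CPM, CCNA2 passed the filter on low counts through its controls, which favours a fall. CCNB2 (cyclin B2) went from 60.6 to 8.08 CPM in A549 (-2.96, SE 0.16) against 73.8 and 75.2 CPM in H1792 (0.02, adjusted p = 0.731, edgeR). CKS2, a small CDK subunit, was the gene of the list called in opposite directions: it fell in A549 (-1.69, SE 0.21) and rose in H1792 (0.57, SE 0.10, adjusted p = 0.00117, edgeR).

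All 5 tested partners of PLK4 were lower in A549 (median -2.25) and 1 of 6 was in H1792, where the latter is near the 18.8% of all genes. CENPJ fell in A549 (log2FC -2.41, SE 0.23), as did CEP152, which recruits PLK4 to centrioles (-2.26, SE 0.39). CEP152 had 10 to 13 reads per treated A549 library, and its A549 value was -1.89 without DMSO replicate 1. In A549 it passed the filter on low counts through its controls, which favours a fall. The H1792 values of CENPJ and CEP152 were -0.02 and -0.13, neither called. The 12 genes listed as regulators of G2/M transcription include CDKN1A (p21), a CDK inhibitor and not itself a transcription factor. Of the 12, 7 were lower and 2 higher in A549 and 5 lower and 1 higher in H1792. LIN9, among the 7, passed the filter on low counts in A549 through its controls, which favours a fall. The 1 higher in H1792 was CDKN1A (log2FC 0.60, SE 0.06). The 2 higher in A549 were CDKN1A (1.73, SE 0.07) and LIN37 (0.69, SE 0.16). MYBL2 (B-MYB) fell from 170.7 to 16.4 CPM in A549 (log2FC -3.46, SE 0.11) and from 220.4 to 175.2 CPM in H1792 (-0.33, SE 0.06), and FOXM1 from 217.6 to 28.6 CPM in A549 (-3.01, SE 0.10) and from 171.7 to 147.3 CPM in H1792 (-0.22, SE 0.05). Of the 7 ubiquitin ligase subunits, 3 were lower in A549, led by CDC20, the mitotic activator of the anaphase-promoting complex (-3.11, SE 0.09), which was at 528.8 and 579.4 CPM in H1792 (0.13, adjusted p = 0.0632, edgeR). SKP1 fell in both lines (-1.26 and -0.79). Its A549 controls were at 130.8, 45.5, 45.8 and 42.2 CPM, and without the first of them the A549 value was -0.74 (adjusted p = 5.2e-07, edgeR).

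AURKA, the kinase that switches on PLK1 and a target of AMG900, fell in A549 (log2FC -2.49, SE 0.09) and was not called in H1792 (0.14, adjusted p = 0.131, edgeR). PLK3, a stress-response relative of PLK1, rose in both lines, from 20.04 to 47.9 CPM in A549 (1.20, SE 0.13) and from 33.3 to 47.8 CPM in H1792 (0.52, SE 0.06). Its direction was thus the opposite of that of PLK1 and PLK4 in A549. The 10 checkpoint kinases and mediators had 3 lower in A549 and 4 in H1792, beside 17.8% and 18.8% of all genes. CLSPN, which helps ATR activate CHEK1, fell in both (-3.41, SE 0.15, and -0.57, SE 0.09), and TOPBP1 fell in A549 (-1.81, SE 0.18) but was not called in H1792 (-0.22). Among the 7 14-3-3 genes, whose proteins hold CDC25 in the cytoplasm, 5 were lower in A549 and 4 in H1792, beside the same shares. YWHAQ fell in both (-1.09 and -0.67), and YWHAH fell in A549 (-0.83) but was not called in H1792 (-0.07).

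Some phosphatases that reverse CDK1's phosphorylations fell in both lines. Of 10 genes of the Greatwall substrates and of PP2A-B55, the phosphatase that MASTL restrains, 4 were lower in A549 (median -0.33) and 5 lower and 1 higher in H1792 (median -0.44). None had a called interaction, which is near the share of all genes, 5.37% called higher and 9.17% lower. PPP2R2A, a B55 subunit, fell in A549 (log2FC -1.98, SE 0.42) and H1792 (-1.41, SE 0.10). It was at 38.1 CPM in A549 DMSO replicate 1 and at no more than 14.7 CPM in the other controls, and without that library the A549 value was -1.34 (adjusted p = 1.07e-05, edgeR). PPP2R2B, with 0 to 10 reads per A549 control, had a log2FC of 1.48 in A549 (adjusted p = 0.0265, edgeR) and -0.36 in H1792, not called. In A549 it passed the filter on low counts through its treated libraries, which favours a rise. Of the mitotic exit phosphatases, 2 of 4 tested were lower in A549 and 3 of 5 in H1792, beside 17.8% and 18.8% of all genes. PPP1CC (-1.40 and -1.01) and PPP1CB (-0.79 and -1.78) fell in both. PPP1CC was at 72.9 CPM in A549 DMSO replicate 1 and at 20.9 to 29.4 CPM in the other controls, and without that library its A549 value was -0.91 (adjusted p = 9.56e-06, edgeR). PPP1CB had the larger fall in H1792 (interaction -1.07, SE 0.17, adjusted p = 0.00015, edgeR). In the group of NEK relatives and centrosome linker genes, 2 of 6 were lower in A549 and 1 in H1792, in the latter near the 18.8% of all genes. NEK7 was called lower in both lines (-0.98 and -2.10), more so in H1792 (interaction -1.19, SE 0.25), but the A549 call was lost without DMSO replicate 1 (-0.94, adjusted p = 0.0146, edgeR). CROCC was not called in either (0.49 and 0.02), and without that library it was called higher in A549 (0.87, adjusted p = 5.76e-06, edgeR).

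**Figure D5:**
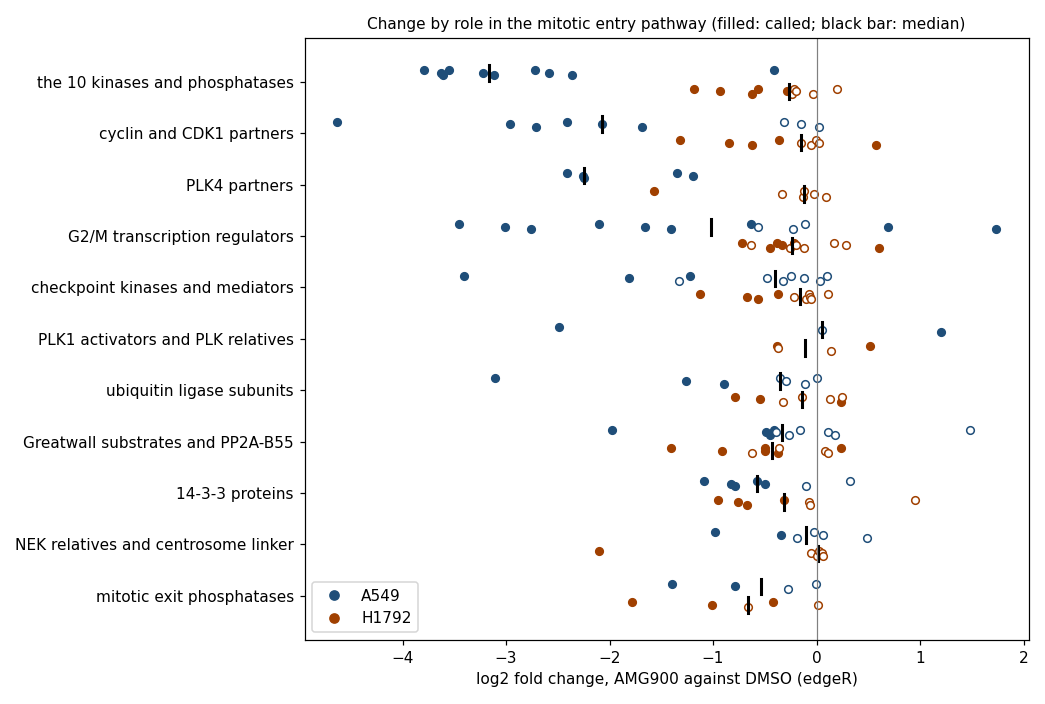
Log2 fold change with AMG900 against DMSO of the 10 kinases and phosphatases (top line) and of 76 other genes of the pathway by role, in A549 (blue) and H1792 (brown). Each circle is a gene, filled where called, and black bars are medians. The A549 median of the 10 is -3.17, beside -2.25 for PLK4 partners and -2.07 for cyclin and CDK1 partners, and the H1792 medians lie between -0.66 and 0.01.

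Over the 14 libraries, the genes outside the group whose log2 CPM most resembled the mean of the 10 were RRM2 (Pearson's r = 0.9956), MYBL2 (0.994), MCM7 (0.9939), ARHGAP11A (0.9938) and CHAF1A (0.9934). The libraries fall into 4 groups, so this likeness mostly describes the 4 group levels. RRM2, a ribonucleotide reductase subunit, had log2FC of -3.87 in A549 and -0.56 in H1792. MCM7, a subunit of the replicative helicase, had -2.18 and -0.22.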

How the data were processed

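The deposited values are raw counts, the number of reads the authors assigned to each gene symbol in a library, 1 table per line, with no normalization. The submitters' processing notes name STAR, HTSeq and GRCh37 (hg19), without versions or roles. Other counting settings are not given in the sources used here. The H1792 table holds 28 names turned into dates (0.101% to 0.117% of counts), which were left out there. The labels' protocol gives 3 replicates per treatment but lists 4 for A549, and all were used.

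R 4.3.3 was used with edgeR 4.0.16 (filterByExpr, TMM, quasi-likelihood test, Benjamini-Hochberg adjustment over all genes tested, threshold 0.01) within each line, and in a fit of 4 group means over 14 libraries for the interaction and the differences between lines. The study's methods give this threshold with DESeq2, which was an alternative here (version 1.42.0). Intervals are 95% and come from the fit's moderated degrees of freedom. Log2 CPM used a prior count of 2. Replicates differed by more than sampling noise (chi-square per gene 3.31 to 48.3), so each counted once. Positions, transcript length and GC content come from GENCODE on GRCh37, where 23617 of 26760 symbols had both. Promoters come from RefSeq on GRCh38.p14. The scripts were tested on simulated counts.

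Alternatives were DESeq2, its size factors, total counts, no filter, a minimum of 10 counts per library, blocking by replicate number, a threshold of 0.05, changes past 2-fold, GC content, GC content with length, and each library left out. All 10 genes are named. Pathway genes named are the 2 per role with the largest change in A549 and any gene called in opposite directions, and the 5 most alike genes were taken by Pearson's r. CDKN1A and LIN37 were named in addition, as the regulators of G2/M transcription called higher. Members and lists were chosen with earlier results of these data known.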

Additional observations from a re-analysis of the deposited data

Results flagged for a closer look

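In 20 groups of 4 libraries (each of the 10 genes in A549 with DMSO and with AMG900), 3 had a library farther from the rest than Dixon's 95% limit allows, and chance alone gives about 1 in 20. CDK1 was at 1.79 CPM in A549 AMG900 replicate 3, with the other treated libraries at 0.565 to 0.639. PLK1 was at 129.0 CPM in A549 DMSO replicate 1, against 164.9 to 167.4 in the other controls, and CDC25B was at 674.2 CPM in the same library, against 609.3 to 612.3. That library is the smallest of the 14. Without it the A549 log2FC was -3.29 for PLK1 and -0.37 for CDC25B, both still called by edgeR.

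The change with AMG900 differed between the lines, by the interaction test, for CDK1 (H1792 minus A549, 2.96 on the log2 scale), PLK1 (3.11), PLK4 (2.60), NEK2 (3.35), MASTL (2.41), WEE1 (1.30), PKMYT1 (3.50), CDC25A (1.67) and CDC25C (3.25). Line, medium and depth of sequencing cannot be told apart in these differences.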

How the results depend on the processing

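Each of the 10 falls in A549 was called under each alternative that could be run, except that of CDC25B, which is under 2-fold (-0.41), while at least 10 counts in every library left CDK1 and PLK4 untested in A549 and in the joint fit. A change of at least 2-fold left 1 of the 10 called lower in H1792 (5 without that limit) and 2 differing between lines with DMSO (7 without it). Scaling by total counts left 4 differing with DMSO. The GC correction gave 1 higher in H1792 (CDC25C, 0 without it) and reversed the H1792 values of CDK1 (0.10), MASTL (0.05, and 0.10 with length) and NEK2 (0.05), and with length CDK1 was at 0.00. It also moved the median interaction of all genes from -0.10 to 0.01. Differences between lines with DMSO that were not called turned for NEK2 (-0.01 with DESeq2 and with its size factors, -0.10 with total counts), MASTL (-0.04 with total counts) and PKMYT1 (-0.08 with GC content, -0.06 with length as well). Leaving out each library gave 10 lower in A549 throughout, 4 to 6 lower and 0 higher in H1792, 7 to 9 with a line by treatment difference, and 4 to 8 differing between lines with DMSO, with 4 only without A549 DMSO replicate 3. NEK2's difference with DMSO turned in 3 of these 14 fits, to -0.05, -0.03 and -0.01 (range -0.05 to 0.09). NEK2 in H1792 became called without DMSO replicate 1 (adjusted p = 0.00581) and PKMYT1 without DMSO replicate 2 (-0.32, adjusted p = 0.00257, edgeR). DESeq2 called 1416 genes higher in the interaction, where edgeR called 793. Without A549 DMSO replicate 1, 45 other pathway genes were lower in A549 (38 with it) and 5 higher (3 with it). The cause was not tested for any of these. Same-numbered libraries did not deviate together (r -0.06 to 0.04), which cannot show whether they were paired in the experiment. With the replicate block, 10 were lower in A549, 5 in H1792, and 9 had a called interaction, as without it. Read counts limit PLK4 and CDK1 in treated A549.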
